A study of Mus musculus with 24 samples.

Results

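The p53 and CDK inhibitor barrier to reprogramming was followed as 10 genes of the 37315 in the expression table, taken by symbol. They were p53 itself (Trp53) and its ubiquitin ligase Mdm2, the CDK inhibitors Cdkn1a (p21), Cdkn1b (p27), Cdkn2a (p16Ink4a and p19Arf) and Cdkn2b (p15Ink4b), and the G1 cyclins Ccnd1, Ccnd2, Ccnd3 and Ccne1. All 10 had a mean above 10 normalized counts in the libraries of every comparison, so none was lost to the filter on low values. RNA-seq was done on 24 libraries, 2 for each of 12 populations: ESCs, NPCs, and reprogramming cells of days 2, 5 and 7 with or without IFNγ, those of day 7 sorted by X-GFP as negative, medium or high. All came from 1 female ESC line, PaX, a cross of 129S1/SvImJ and CAST/EiJ that carries X-GFP, a reporter in the Hprt locus of the M. musculus X, a Tsix truncation that biases inactivation to this X, a Nanog-promoter RFP reporter, and a doxycycline-inducible cassette of c-Myc, Klf4, Oct4 and Sox2 in the Sp3 locus. NPCs were SSEA1-, RFP- and X-GFP- when sorted. All reprogramming cells, control cells included, had doxycycline and ascorbic acid, and the treated cells also had IFNγ (10 ng/ml) from day 0 until day 5, so that day 7 cells were sampled after it was withdrawn. Day 2 cells were sorted away from dye-stained male feeder fibroblasts, and cells of days 5 and 7 were SSEA1+.

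The G1 phase is passed when cyclin D with CDK4 or CDK6, and then cyclin E with CDK2, phosphorylate the retinoblastoma proteins and free the E2F factors. p53 slows this step by inducing p21, which inhibits cyclin-CDK complexes, and it also induces Mdm2, which marks p53 for degradation. The Ink4 proteins p16 and p15 bind CDK4 and CDK6, while Arf, made from the same gene as p16 in another reading frame, blocks Mdm2. In mouse fibroblasts p53, p21, the Ink4 proteins and Arf are known brakes on reprogramming. Pluripotent cells are known for a short G1 phase with little Ink4 and p21 and much cyclin E.

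Promoter sequence is shown for the 3 members whose RNA fell most clearly together with IFNγ at day 7, Cdkn1a, Cdkn2a and Cdkn2b. Cdkn1a lies on chromosome 17 (29090976 to 29100727, forward strand, GRCm38), and the neighbours Cdkn2a (89274471 to 89294653) and Cdkn2b (89306299 to 89311039) lie on the reverse strand of chromosome 4. RefSeq start sites on GRCm38.p6 were found for 8 of the 10 members, in 11 windows of 250 bases before and 50 after a start, and Ccnd1 and Ccnd2 had no entry. The windows were searched on both strands for the STAT site TTCNNNGAA, the interferon response sequence (GAAA followed, after any 2 bases, by GAAA) and the E2F sites TTTCCCGC and TTTGGCGC, which stood in 8.30%, 3.44%, 1.07% and 0.514% of all 32851 promoter windows. The p53 response element, 20 letters long, was added to the search after the sequences had been seen, with at most 1 mismatch allowed, and stood in 0.0883% of the windows. Of the 11 member windows, 2 held any of these motifs, which are in capitals below. The 250 bases before each start are given 5′ to 3′ on the strand of the gene.
Cdkn1a, upstream start, chr17:29090729-29090978, forward: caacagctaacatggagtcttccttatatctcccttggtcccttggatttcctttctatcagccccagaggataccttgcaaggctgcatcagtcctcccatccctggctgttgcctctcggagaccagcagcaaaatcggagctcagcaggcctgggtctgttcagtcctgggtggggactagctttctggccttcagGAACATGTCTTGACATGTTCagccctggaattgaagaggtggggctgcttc
Cdkn1a, downstream start, chr17:29093519-29093768, forward: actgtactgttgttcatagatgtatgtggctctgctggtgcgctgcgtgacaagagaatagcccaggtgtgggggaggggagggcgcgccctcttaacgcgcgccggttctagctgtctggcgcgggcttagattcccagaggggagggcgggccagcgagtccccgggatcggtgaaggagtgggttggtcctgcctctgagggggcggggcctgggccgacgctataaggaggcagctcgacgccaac
Cdkn2a, upstream start, used by Arf, chr4:89294620-89294869, reverse: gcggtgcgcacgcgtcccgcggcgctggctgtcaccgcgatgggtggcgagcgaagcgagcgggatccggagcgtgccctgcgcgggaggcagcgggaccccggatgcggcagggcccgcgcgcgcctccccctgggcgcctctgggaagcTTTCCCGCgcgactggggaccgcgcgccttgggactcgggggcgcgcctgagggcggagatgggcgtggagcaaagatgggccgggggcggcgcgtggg
Cdkn2a, downstream start, used by p16Ink4a, chr4:89282193-89282442, reverse: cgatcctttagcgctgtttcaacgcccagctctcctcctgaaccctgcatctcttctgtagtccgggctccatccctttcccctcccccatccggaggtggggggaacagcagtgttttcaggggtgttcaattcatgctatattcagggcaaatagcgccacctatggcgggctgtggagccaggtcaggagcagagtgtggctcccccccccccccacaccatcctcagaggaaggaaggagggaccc
Cdkn2b, chr4:89311033-89311282, reverse: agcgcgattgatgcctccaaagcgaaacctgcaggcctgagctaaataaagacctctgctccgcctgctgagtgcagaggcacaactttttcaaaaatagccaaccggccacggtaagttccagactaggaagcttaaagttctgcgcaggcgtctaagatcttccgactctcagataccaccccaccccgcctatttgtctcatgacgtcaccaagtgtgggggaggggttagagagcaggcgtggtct

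The capitals in the first sequence are the p53 response element of Cdkn1a, which began 51 bases before the start and had 1 mismatch. The capitals in the Arf sequence are the E2F site TTTCCCGC, 99 bases before the start, with no overlap with another motif. Base composition set the windows apart. The Arf window was 77.0% G or C with 45 CG dinucleotides, against 60.3% and 12 for the p16Ink4a window, 57.7% and 18 for Cdkn2b, and 54.7% and 2 for the upstream start of Cdkn1a. The downstream start of Cdkn1a had 64.7% and 23, and the median over all promoter windows was 52.67% and 7. The counts per gene do not separate the 2 starts of Cdkn1a or of Cdkn2a, so each value of Cdkn2a below joins p16Ink4a and Arf transcripts.

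The libraries had 24746109 to 37056508 reads on genes in the 21 whose reads were recovered from the values. Of the defining markers, 8 of 8 neural precursor genes were above 10 normalized counts in NPCs and 8 of 8 pluripotency genes in ESCs. The 4 Y-linked genes, which mark the male feeders, summed to 218 to 253 normalized counts in day 2 control libraries and 125 to 223 in day 2 IFNγ libraries. In the libraries of days 5 and 7 they summed to at most 12.5, with 0 of 4 genes above 10. In NPCs they summed to at most 1.94, and the part of feeder RNA in the day 2 results was not tested. Exon bases of Cdkn1a, Ccnd1, Ccnd2 and Ccnd3 overlap those of genes on the opposite strand. The strand setting of the counting is not given in the sources used here, so a share of their reads could belong to those neighbours. The study's methods call replicates independent, but neither they nor the labels say whether the libraries of a population came from separate cultures, so p-values measure the spread between these libraries, which may be technical.

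Along the control course, the members changed at every step (limma, adjusted p under 0.1). From NPCs to day 2, 4 members rose and 3 fell, where 31.6% of all genes tested rose and 37.6% fell, 69.2% in all. From day 2 to day 5, 3 rose and 5 fell, beside 34.9% and 35.6% of all genes, or 70.6%. From day 5 to day 7 X-GFP–negative cells, 6 rose and 4 fell, beside 34.2% and 29.5%, or 63.7%. X-GFP–medium cells differed from negative cells in 7 members, 3 higher and 4 lower, beside 21.9% and 25.2%, or 47%. X-GFP–high cells differed from medium cells in all 10, 3 higher and 7 lower, beside 31.4% and 32.7%, or 64.1%. In ESCs 3 members were higher and 7 lower than in X-GFP–high cells, beside 37.8% and 37.9%, or 75.8%, and 3 were higher and 6 lower than in NPCs, beside 42.2% and 43.4%, or 85.6%. The shares of genes called were large at every step, so the counts alone do not set the members apart, and their directions and sizes are given gene by gene. With values rescaled to the same total, the median of all genes shifted by -0.12 on the log2 scale from day 2 to day 5 and by -0.13 between NPCs and ESCs. Of all calls between X-GFP–medium and negative cells, 60.2% were then higher in medium cells, against 46.5% without rescaling. No member call of these 3 comparisons changed direction under it.

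**Figure D1:**
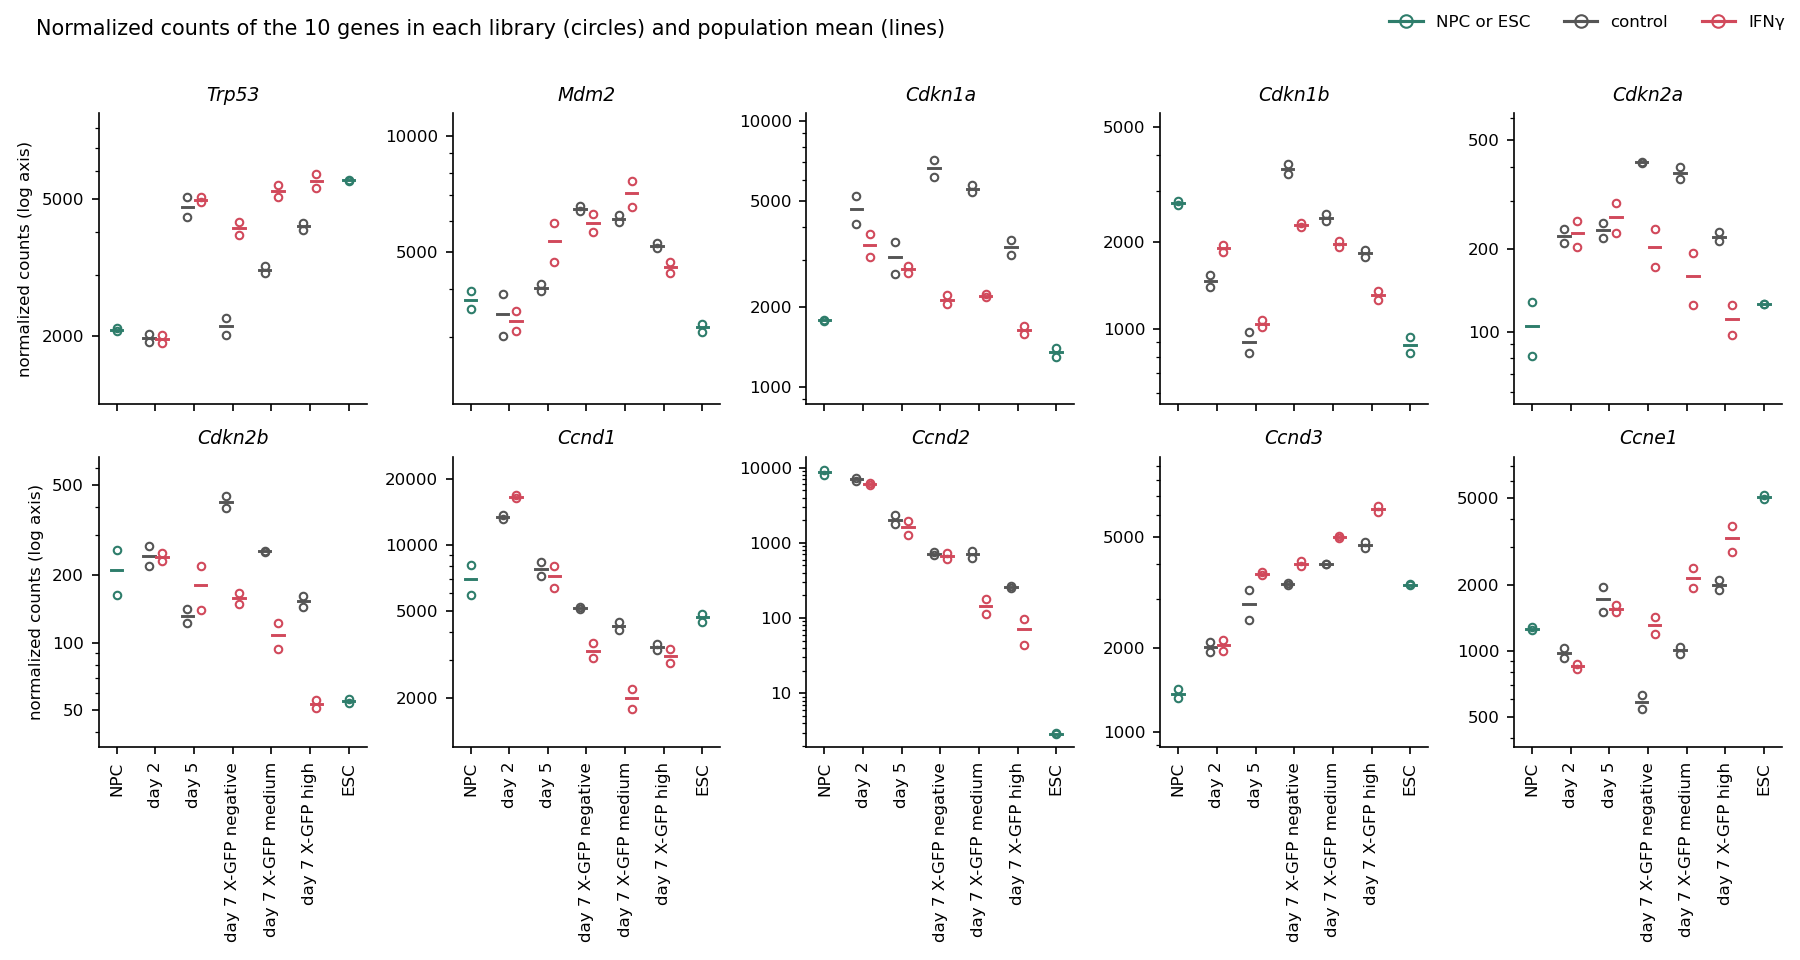
Normalized counts (log axis) of the 10 members in each of the 24 libraries, 1 panel per gene, with the populations on the horizontal axis, circles for single libraries, short lines for the means of 2, and separate colors for NPCs and ESCs, control and IFNγ. Trp53 was lowest at day 2 and Ccne1 in control X-GFP–negative cells, both were highest in ESCs, the 4 CDK inhibitor genes peaked in control X-GFP–negative cells, and Ccnd2 fell from 8642 in NPCs to 2.9 in ESCs.

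Trp53 RNA rose with X-GFP within day 7 and was highest in ESCs, but all day 7 control populations lay below day 5. It stood at 2108 and 2058 normalized counts in NPCs, at 2018 and 1921 in day 2 control cells, at 4425 and 5045 in day 5 control cells, and at 5675 and 5637 in ESCs. At day 7 it was 2011 and 2249 in control X-GFP–negative cells, 3034 and 3189.6 in X-GFP–medium cells and 4059 and 4260.0 in X-GFP–high cells. The day 7 control populations did not overlap, and the X-GFP–negative cells were back in the range of NPCs after the high values of SSEA1+ cells at day 5. The rise from day 2 to day 5 was 1.26 on the log2 scale (SE 0.0818, adjusted p = 2.00e-05), and the drop from day 5 to X-GFP–negative cells was -1.15 (SE 0.0895, adjusted p = 6.27e-05). Medium cells exceeded negative cells by 0.55 (adjusted p = 9.87e-05), high exceeded medium cells by 0.42 (adjusted p = 6.50e-06), and ESCs exceeded high cells by 0.44 (adjusted p = 3.37e-06). Over the 12 populations the highest mean was 2.89-fold the lowest.

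Mdm2, the ligase that restrains p53 protein, varied least, by 2.23-fold from ESCs to IFNγ-treated X-GFP–medium cells. It did not follow Trp53. Control cells had 3555 and 3951 normalized counts as NPCs, 3885 and 3013 at day 2, and 3951 and 4116 at day 5. It then reached 6569.7 and 6379 in X-GFP–negative cells, 6238 and 5957 in medium cells and 5274 and 5096 in high cells, and was 3252 and 3099.5 in ESCs. Of the steps, 3 were past the threshold, a rise of 0.68 to negative cells (SE 0.0620, adjusted p = 9.90e-05), a fall of -0.23 from medium to high cells (adjusted p = 0.000763) and one of -0.71 from high cells to ESCs (adjusted p = 4.61e-08). The step from day 2 to day 5 (0.24, adjusted p = 0.110) passed without day 2 control replicate 1, with an adjusted p of 0.00719. Mdm2 was also lower in ESCs than in NPCs, by -0.24 (adjusted p = 0.0238), but without ESC replicate 1 or 2 that adjusted p was 0.112 or 0.182.

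Cdkn1a, which encodes p21, was higher at day 2 than in NPCs. The part of feeder RNA in this difference, and in those of Cdkn2a, Ccnd1 and Ccnd3 at the same step, was not tested. NPC libraries had 1773 and 1790.3 normalized counts and day 2 control libraries 5215 and 4091, a rise of 1.37 on the log2 scale (SE 0.121, adjusted p = 0.000285). It was 3512 and 2653 at day 5, lower than at day 2 by -0.60 (adjusted p = 0.0117), and reached its highest level of all populations in control X-GFP–negative cells at day 7, with 7128 and 6183. The levels then stepped down with X-GFP, to 5737 and 5394 in medium cells and 3561 and 3146 in high cells, and ESCs were lowest of all with 1297 and 1403. The step from negative to medium cells was small, -0.26 (SE 0.0678, adjusted p = 0.0116), and without medium control replicate 2 its adjusted p was 0.102. The steps from medium to high cells (-0.73, SE 0.0604, adjusted p = 6.81e-08) and from high cells to ESCs (-1.31, SE 0.0703, adjusted p = 1.57e-09) kept the call without any single library.

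Cdkn1b, which encodes p27, had a different course over the first days. It was high in NPCs, with 2683 and 2772 normalized counts, lower at day 2 with 1399 and 1529.5, and lower still at day 5 with 976 and 823. In X-GFP–negative cells it was 3724 and 3447, a rise over day 5 of 2.00 on the log2 scale (SE 0.0987, adjusted p = 2.20e-05). It shared the decline across day 7 with Cdkn1a, with 2359 and 2493 in medium cells, 1874 and 1777 in high cells and 822 and 936 in ESCs, and no neighbours in that series overlapped. The first 2 steps of the course were -0.90 (adjusted p = 0.000291) and -0.71 (adjusted p = 0.000949).

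Cdkn2a and Cdkn2b, the neighbours on chromosome 4, were expressed at low levels, Cdkn2a from 81.7 to 417 normalized counts and Cdkn2b from 51.4 to 447 over the 24 libraries. Both peaked in control X-GFP–negative cells, with 411 and 417 for Cdkn2a and 447 and 398 for Cdkn2b. Cdkn2a was 81.7 and 128 in NPCs, 237 and 210.4 at day 2 and 219.7 and 249 at day 5, and the difference between day 2 and day 5 was within the spread. At day 7 it was 359.7 and 398 in medium cells and 231 and 213 in high cells, and ESCs had 126 and 127. The rise from NPCs to day 2 was 1.12 on the log2 scale (SE 0.254, adjusted p = 0.0103), and without day 2 control replicate 1 its adjusted p was 0.126. Cdkn2a changed by 0.82 from day 5 to negative cells (adjusted p = 0.000973) and by -0.77 from medium to high cells (adjusted p = 2.06e-05), while ESCs and NPCs overlapped (adjusted p = 0.320, or 0.0487 without NPC replicate 2).

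Cdkn2b started from 162 and 257 in NPCs and 269 and 218 at day 2, which overlapped (adjusted p = 0.433, or 0.0410 without NPC replicate 2), and fell to 141 and 123 at day 5. After the peak in X-GFP–negative cells it was 256 and 253 in medium cells, 162 and 144 in high cells and 56.0 and 54.2 in ESCs. Each of these steps was past the threshold, from 1.67 on the log2 scale between day 5 and negative cells (SE 0.145, adjusted p = 8.49e-05), through -0.73 for each step within day 7, to -1.45 between high cells and ESCs (adjusted p = 6.84e-06). The highest population mean was 3.95-fold the lowest for Cdkn2a and 7.90-fold for Cdkn2b, against 4.93-fold for Cdkn1a and 4.08-fold for Cdkn1b.

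The D-type cyclins, the partners of CDK4 and CDK6, were exchanged for each other along the course. Ccnd2 was the clearest case. Its libraries had 9301 and 7983 normalized counts in NPCs, 6656 and 7257 at day 2, and 2309 and 1754 at day 5. The X-GFP–negative libraries had 687 and 747. Medium cells overlapped with these at 632 and 770.3, high cells had 263 and 249.8, and ESCs had 2.95 and 2.85, which stand for 3 reads in each library. The NPC mean was 2978 times the ESC mean, with a 95% interval of 1368 to 8116 from the 6 ESC reads, which covers counting error only. The fall between NPCs and day 2 was -0.31 on the log2 scale (adjusted p = 0.0333), and without day 2 control replicate 1 or 2 its adjusted p was 0.234 or 0.120. The later falls, of -1.79 to day 5 (SE 0.126, adjusted p = 2.66e-05), -1.49 to X-GFP–negative cells (SE 0.131, adjusted p = 8.90e-05) and -1.44 from medium to high cells (SE 0.105, adjusted p = 1.74e-08), held without any single library.

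Ccnd3 moved the other way, and its rise was spread over the whole course. It was 1427 and 1326 normalized counts in NPCs, 2105 and 1943 at day 2, 3231 and 2517 at day 5, 3378 and 3422 in X-GFP–negative cells, 4021 and 4023 in medium cells and 4786 and 4583 in high cells, and 3389 and 3371 in ESCs. High cells thus had more Ccnd3 RNA than ESCs, by 1.39-fold (adjusted p = 2.23e-06). Of its rises, that from day 5 to X-GFP–negative cells had the largest adjusted p (0.25, adjusted p = 0.0851). Its adjusted p was 0.505 without day 5 control replicate 2 and 0.200 or 0.222 without negative control replicate 1 or 2.

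Ccnd1, a target of mitogen signaling, peaked early. NPC libraries had 8081 and 5892 normalized counts and day 2 control libraries 13019.5 and 13629.5, a rise of 0.95 on the log2 scale (SE 0.149, adjusted p = 0.00239). The level was 8343 and 7212 at day 5, 5184 and 5117 in X-GFP–negative cells, 4098 and 4427 in medium cells and 3534 and 3328 in high cells, each lower than the population before it with no overlap. ESCs had 4859 and 4467, above high cells by 0.44 (adjusted p = 1.23e-05) and below NPCs by -0.57 (adjusted p = 0.0131), though without ESC replicate 1 or 2 the adjusted p of the latter was 0.126 or 0.182.

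The balance of the D-type cyclins was compared per kb of exon length, as the share of each gene in the summed normalized count per kb of the 3 (mean ± SD, n = 2). NPCs had 57.7% ± 3.01 Ccnd1, 36.1% ± 2.28 Ccnd2 and 6.19% ± 0.735 Ccnd3. By day 5, control cells had 75.3% ± 1.5, 9.79% ± 0.701 and 14.9% ± 0.799, and control X-GFP–high cells had 56.5% ± 0.285, 2.11% ± 0.00213 and 41.4% ± 0.283. In ESCs the Ccnd2 share was 0.0224% ± 0.000476 and Ccnd1 again held 72.0% ± 1.12. The summed level per kb fell from 3799.6 ± 124 at day 2 to 1289.7 ± 48.2 in X-GFP–high control cells, so the larger Ccnd3 share went with a smaller pool as well as with more Ccnd3 RNA. Which cyclin was largest depended on the division by length. Without it, Ccnd2 was largest in NPCs (51.0% ± 2.17 against 40.9% ± 2.97 Ccnd1) and Ccnd3 in control X-GFP–high cells (56.0% ± 0.282 against 41.0% ± 0.28 Ccnd1).

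**Figure D2:**
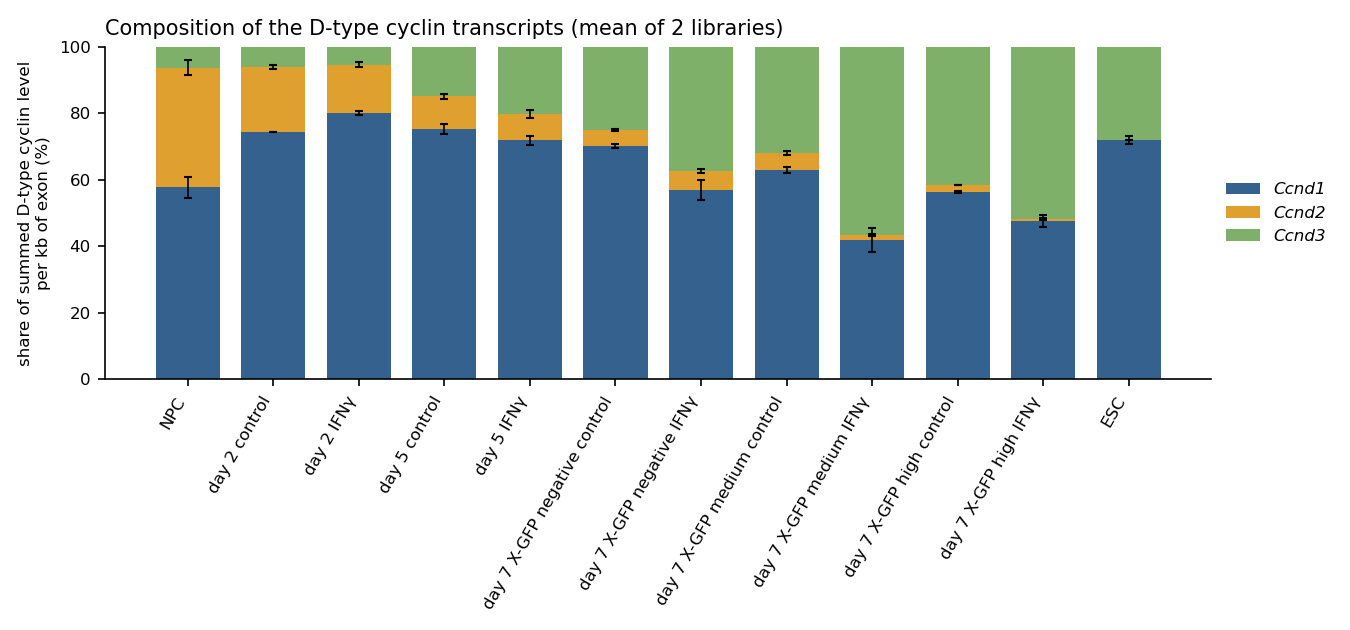
Share of Ccnd1, Ccnd2 and Ccnd3 (percent, stacked to 100) in their summed normalized count per kb of exon length in each population, means of 2 libraries, with error bars at the top of the Ccnd1 and Ccnd2 segments for the SD of that gene's own share. Ccnd2 shrank from 36.1% in NPCs to 0.0224% in ESCs, and Ccnd3 held the largest share, 56.5%, in IFNγ-treated X-GFP–medium cells.

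From day 5 on, Ccne1, the partner of CDK2 that acts after the D-type cyclins, ran almost opposite to the CDK inhibitors. From NPCs to day 2 Cdkn1b fell (-0.90 on the log2 scale), and so did Ccne1 (-0.37, limma adjusted p = 0.0144). It was 1244 and 1288 normalized counts in NPCs, 1035 and 927 at day 2, and 1506 and 1955 at day 5, and ESCs were highest with 4942 and 5156. At day 7 the control populations were far apart, at 543 and 629 in X-GFP–negative cells, the lowest of all populations, 967 and 1044 in medium cells and 1906 and 2113 in high cells. The changes were -1.55 on the log2 scale from day 5 to negative cells (SE 0.136, adjusted p = 8.90e-05), 0.78 from negative to medium cells (SE 0.0888, adjusted p = 6.50e-05), 1.00 from medium to high cells (SE 0.0697, adjusted p = 1.18e-08) and 1.33 from high cells to ESCs (SE 0.0614, adjusted p = 3.84e-10). The highest population mean was 8.62-fold the lowest.

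In the order of the 12 population means, neighbours whose libraries overlapped did not differ beyond their spread. Of the 11 neighbouring pairs, 8 overlapped for Cdkn2a, 7 each for Mdm2 and Cdkn2b, 6 for Trp53, 5 for Ccne1, 4 each for Cdkn1a and Ccnd1, and 3 each for Cdkn1b, Ccnd2 and Ccnd3. For Cdkn1a and Cdkn2a, control X-GFP–negative cells stood first and control medium cells next, with no overlap between them. For Cdkn2a this difference was not called (log2 -0.13, limma adjusted p = 0.303). For Trp53 the 3 highest populations, ESCs and IFNγ-treated X-GFP–high and medium cells, overlapped from one to the next.

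IFNγ during the first 2 days changed 2 of the 10 members, Cdkn1b and Ccnd1, both higher, where 8.49% of all genes changed and 5.03% were higher. Cdkn1b was 1944 and 1849 normalized counts in IFNγ-treated libraries against 1399 and 1529.5 in control libraries, 1.30-fold higher (log2 0.37, SE 0.0708, adjusted p = 0.0361). Ccnd1 was 16751 and 16304 against 13019.5 and 13629.5, 1.24-fold higher (log2 0.31, SE 0.0527, adjusted p = 0.0249), and these were the highest Ccnd1 values of all libraries. Both genes rested on few libraries. The adjusted p of Cdkn1b was 0.144 without day 2 control replicate 1 and 0.121 without IFNγ replicate 1, and that of Ccnd1 was 0.110 without IFNγ replicate 1.

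Cdkn1a was 3753 and 3082 with IFNγ against 5215 and 4091 without, which did not overlap but missed the threshold (log2 -0.44, SE 0.135, adjusted p = 0.135). It passed without control replicate 2 (adjusted p = 0.0935) or IFNγ replicate 1 (adjusted p = 0.0395). Ccnd2 (-0.22, adjusted p = 0.125) and Ccne1 (-0.20, adjusted p = 0.233) also had libraries apart, as had 51.2% of all genes. For Trp53, Mdm2, Cdkn2a, Cdkn2b and Ccnd3 the libraries of both arms overlapped. A fit with the replicate number as a block also called Cdkn1a, Ccnd2 and Ccne1 lower. The fibroblast genes moved with IFNγ at day 2: 10 of 10 were above 10 normalized counts, and their sum was 42101 to 62430.5 in control libraries and 26114 to 31717 in IFNγ libraries, beside 31134 to 44471 in NPCs. Their part in these results was not tested. In bulk libraries like these, fewer cells of a type and less RNA per cell cannot be told apart.

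At day 5, at the end of the treatment, limma called 0 of the 10 members, where 2.18% of all genes were called. At an unadjusted p under 0.05 there were 2, and the share of all genes at that cutoff is not given here. These were Mdm2 (4692 and 5950.4 against 3951 and 4116 normalized counts, log2 0.39, adjusted p = 0.171) and Ccnd3 (3745 and 3653 against 3231 and 2517, log2 0.38, adjusted p = 0.191). DESeq2 on recovered reads called these 2 and edgeR 0, and a fit with the replicate number as a block called these 2 and Ccnd2. Without control replicate 1 Ccnd3 passed (adjusted p = 0.0968), and without IFNγ replicate 1 Mdm2 (adjusted p = 0.0191) and Ccnd2 (adjusted p = 0.0605) did. Cdkn1a, at 2856 and 2681 against 3512 and 2653, and Trp53, at 5045 and 4891 against 4425 and 5045, overlapped between the arms. The effect at day 5 was also tested against that at day 2. limma called the difference for 0 of the 10 members, beside 0.676% of all genes. At an unadjusted p under 0.05 it had 2 members, again without the share of all genes at that cutoff. The count tests were not run on these libraries, and the drop in the effect on Ccnd1 had an adjusted p of 0.0685 without day 5 IFNγ replicate 1.

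At day 7, after withdrawal of IFNγ, most members differed between the arms in each sorted population. With IFNγ, 3 members rose and 5 fell in X-GFP–negative cells, where 31.1% of all genes were higher and 30.8% lower, 61.9% in all. In X-GFP–medium cells 4 were higher and 6 lower, beside 33.3% and 29.6%, or 62.9%. In X-GFP–high cells 3 were higher and 6 lower, beside 18.1% and 20.4%, or 38.5%. Trp53, Ccnd3 and Ccne1 were higher, and Cdkn1a, Cdkn1b, Cdkn2a and Cdkn2b lower, in all 3 populations. The median log2 fold change of the members was -0.39, -0.70 and -0.34 in negative, medium and high cells, against 0.02, 0.04 and 0.03 over all genes.

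**Figure D3:**
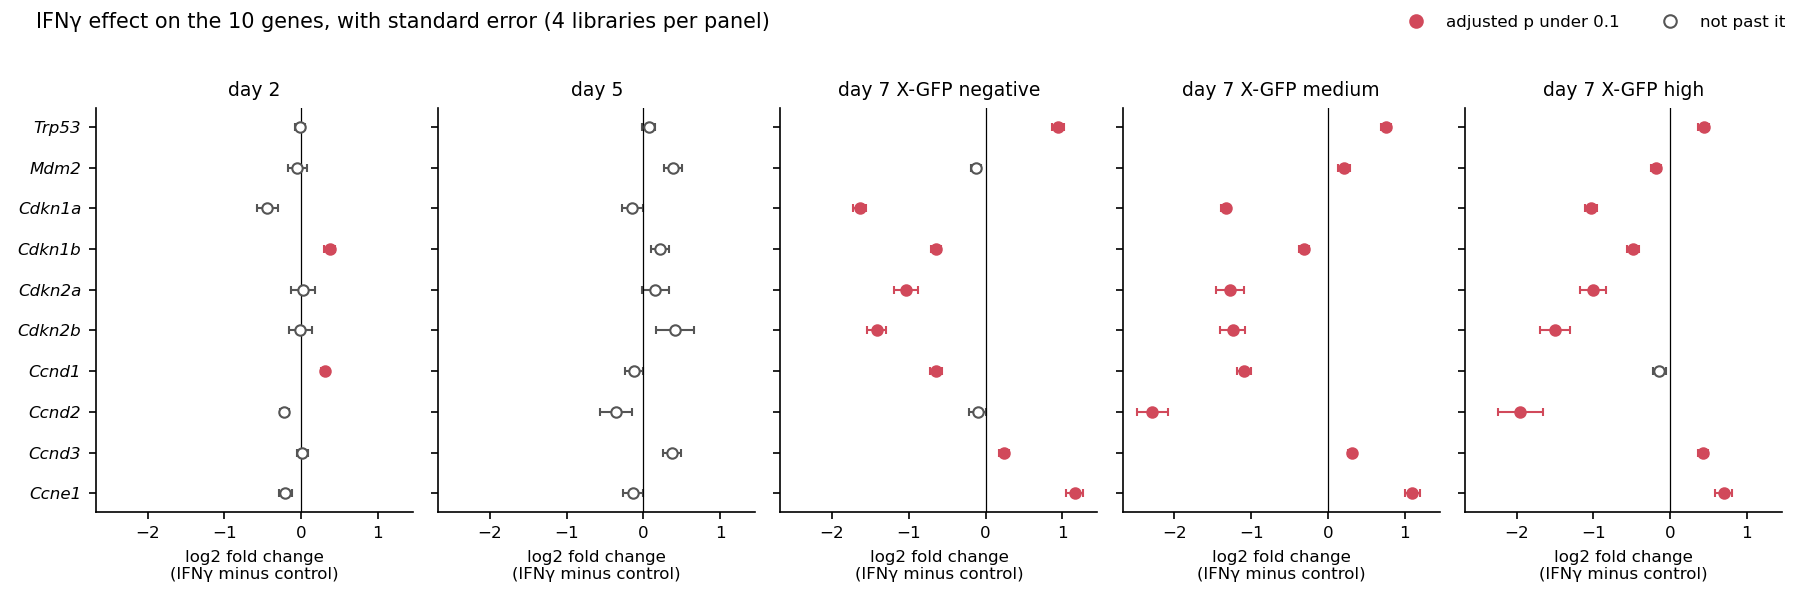
Log2 fold change of IFNγ-treated over control cells for the 10 members at day 2, day 5 and day 7 in X-GFP–negative, medium and high cells, with bars for 1 standard error of limma and open markers where the adjusted p was not under 0.1. The values lay between -0.44 and 0.41 at days 2 and 5, and at day 7 the 4 CDK inhibitors lay below 0 and Trp53, Ccnd3 and Ccne1 above 0 in all 3 populations.

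Trp53 was higher with IFNγ in each population. In X-GFP–negative cells it was 3919 and 4286 normalized counts with IFNγ against 2011 and 2249 without, 1.93-fold higher (log2 0.95, SE 0.0777, adjusted p = 1.59e-05). In medium cells it was 5055 and 5488 against 3034 and 3189.6, 1.69-fold higher (log2 0.76, SE 0.0642, adjusted p = 7.84e-06), and in high cells 5371 and 5899.8 against 4059 and 4260.0, 1.35-fold higher (log2 0.44, SE 0.0717, adjusted p = 0.000833). The treated X-GFP–negative libraries overlapped with the control X-GFP–high libraries. Mdm2, which p53 protein induces, had small values of both signs. Its values were 6275 and 5625 against 6569.7 and 6379 in negative cells (log2 -0.12, adjusted p = 0.149), 7632 and 6544 against 6238 and 5957 in medium cells (log2 0.21, adjusted p = 0.0347) and 4699 and 4411 against 5274 and 5096 in high cells (log2 -0.19, adjusted p = 0.0558). The calls of Mdm2 rested on single libraries. In medium cells the adjusted p was 0.196 without control replicate 2 and 0.134 without IFNγ replicate 1, and in high cells it was 0.382, 0.191 and 0.111 without control replicate 1, control replicate 2 and IFNγ replicate 2. In negative cells it was 0.0463 without IFNγ replicate 1.

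Cdkn1a was the member with the smallest p in each population. In X-GFP–negative cells it was 2215 and 2045 normalized counts with IFNγ against 7128 and 6183 without, 3.12-fold lower (log2 -1.64, SE 0.0806, adjusted p = 1.35e-06). In medium cells it was 2236 and 2179 against 5737 and 5394, 2.52-fold lower (log2 -1.33, SE 0.0609, adjusted p = 4.14e-07), and in high cells 1583 and 1701 against 3561 and 3146, 2.04-fold lower (log2 -1.03, SE 0.0808, adjusted p = 4.35e-06). The treated X-GFP–negative and medium libraries overlapped each other and lay below all control libraries of days 2 to 7, and the treated high cells lay between NPCs and ESCs. Cdkn1b was lowered less. It was 2326 and 2252 against 3724 and 3447 in negative cells (log2 -0.65, adjusted p = 5.95e-05), 2012 and 1912 against 2359 and 2493 in medium cells (log2 -0.31, adjusted p = 0.00281) and 1353 and 1254 against 1874 and 1777 in high cells (log2 -0.49, adjusted p = 0.000751), with no overlap in any of them.

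Cdkn2a and Cdkn2b fell together. Cdkn2a was 172 and 237 normalized counts with IFNγ against 411 and 417 without in X-GFP–negative cells (log2 -1.04, SE 0.154, adjusted p = 0.000472), 125 and 193 against 359.7 and 398 in medium cells (log2 -1.27, adjusted p = 0.000270), and 97.1 and 125 against 231 and 213 in high cells (log2 -1.01, adjusted p = 0.00116). Cdkn2b was 148 and 166 against 447 and 398 in negative cells, 2.69-fold lower (log2 -1.42, SE 0.127, adjusted p = 2.53e-05). In medium cells it was 94.0 and 122 against 256 and 253, 2.35-fold lower (adjusted p = 0.000135), and in high cells 51.4 and 55.5 against 162 and 144, 2.86-fold lower (adjusted p = 0.000164). The treated X-GFP–high libraries overlapped with ESCs for Cdkn2b and lay below the 126 and 127 of ESCs for Cdkn2a.

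The D-type cyclins did not move as one group. Ccnd3 was modestly higher with IFNγ, at 4095 and 3928 against 3378 and 3422 normalized counts in X-GFP–negative cells, 5043 and 4971 against 4021 and 4023 in medium cells, and 6149 and 6464 against 4786 and 4583 in high cells. The log2 fold changes were 0.24, 0.32 and 0.43, with adjusted p of 0.00884, 0.000907 and 0.000612. Ccnd1 was lower with IFNγ in negative cells, at 3035 and 3563 against 5184 and 5117 (log2 -0.65, SE 0.0796, adjusted p = 0.000154), and in medium cells, at 1792 and 2211 against 4098 and 4427 (log2 -1.10, SE 0.0930, adjusted p = 8.00e-06). In high cells its libraries overlapped, at 2881 and 3361 against 3534 and 3328 (log2 -0.14, adjusted p = 0.224), though without IFNγ replicate 2 the adjusted p was 0.00413.

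Ccnd2 behaved otherwise again. It was 602 and 738 with IFNγ against 687 and 747 without in X-GFP–negative cells, which overlapped (log2 -0.10, adjusted p = 0.464). In medium cells it was 112 and 181 against 632 and 770.3, 4.79-fold lower (log2 -2.28, SE 0.199, adjusted p = 9.43e-06), and in high cells 43.4 and 98.2 against 263 and 249.8, 3.62-fold lower (log2 -1.95, SE 0.292, adjusted p = 0.000447). The value in negative cells depended on 1 treated library, being 0.04 (adjusted p = 0.780) without IFNγ replicate 1 and -0.25 (adjusted p = 0.0926) without IFNγ replicate 2. Per kb, Ccnd3 made up 37.3% ± 3.41 of the D-type cyclin pool in treated X-GFP–negative cells against 24.9% ± 0.258 in control cells, 56.5% ± 4.06 against 31.9% ± 1.32 in medium cells, and 51.8% ± 1.96 against 41.4% ± 0.283 in high cells.

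Ccne1 rose with IFNγ in each population. It was 1195 and 1427 normalized counts against 543 and 629 in X-GFP–negative cells, 2.24-fold higher (log2 1.16, SE 0.110, adjusted p = 3.50e-05). In medium cells it was 1948 and 2384 against 967 and 1044, 2.15-fold higher (log2 1.10, SE 0.0960, adjusted p = 9.51e-06), and in high cells 2842 and 3722 against 1906 and 2113, 1.63-fold higher (log2 0.70, SE 0.110, adjusted p = 0.000630). Treated medium cells overlapped with control high cells, and treated high cells remained below the 4942 and 5156 of ESCs.

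Other marker groups moved with IFNγ in the same sorted populations. Pluripotency genes, of which 8 of 8 were above 10 normalized counts, summed to 56325 to 59366 with IFNγ against 46717 to 51093 without in X-GFP–negative cells, to 102413 to 107166 against 73365 to 74882 in medium cells, and to 136083 to 142621 against 118547 to 122697 in high cells. These sums hold Pou5f1 (Oct4), whose reads can include the transgene. The 10 fibroblast genes, of which Lum and Twist2 were at or below 10 in all of these populations, summed to 1098 to 1099.7 against 4483 to 5108 in negative cells, 709.8 to 772 against 5074 to 5641 in medium cells, and 634 to 695 against 2147 to 2629.5 in high cells. The 8 neural precursor genes summed to 6025 to 6429 with IFNγ against 6423 to 6547 in negative cells, 1775 to 2199 against 3934 to 4195 in medium cells, and 869 to 979 against 2052 to 2155 in high cells. Between 4 and 7 of them were above 10, and Olig2 was at or below 10 in each of these populations. The neural precursor sum was lower with IFNγ, with no overlap, in medium and high cells, and overlapped between the arms in negative cells. The Y-linked feeder genes summed to at most 12.5 normalized counts in these libraries. The part of these marker groups in the member results, that of Ccnd2 included, was not tested. In negative cells, rescaling the libraries to the same total moved the median of all genes by 0.16 on the log2 scale and the share of calls that were higher from 50.3% to 66.2%. The 8 member calls kept their direction under it, with Cdkn1a at -1.48 and Trp53 at 1.10, while the uncalled values of Mdm2 and Ccnd2 changed sign to 0.03 and 0.05.

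Whether the IFNγ effect differed between sorted populations was tested as an interaction. Between X-GFP–medium and negative cells it differed for 5 of the 10 members, beside 15.7% of all genes. The effect on Ccnd2 was more negative in medium cells, by -2.18 on the log2 scale (SE 0.276, adjusted p = 0.00182), as was that on Ccnd1, by -0.45 (SE 0.142, adjusted p = 0.0751). The effects on Cdkn1b (0.34, adjusted p = 0.0389), Mdm2 (0.34, adjusted p = 0.0831) and Cdkn1a (0.31, adjusted p = 0.0958) were less negative or more positive in medium cells. Rescaling moved the median interaction over all genes by -0.16 and the share of calls that were higher from 46.6% to 12.3%. Under it Cdkn1b, Mdm2 and Cdkn1a were not called, and Ccnd2 was at -2.35 (adjusted p = 0.00104). Ccnd2 was the only one of the 5 called without any single library, with adjusted p up to 0.0189. Without negative control replicate 1, Cdkn1b, Ccnd1, Mdm2 and Cdkn1a had adjusted p of 0.128, 0.159, 0.201 and 0.276.

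Between X-GFP–high and medium cells the effect differed for 4 members, beside 12.8% of all genes. The effect on Ccnd1 was less negative in high cells, by 0.96 on the log2 scale (SE 0.142, adjusted p = 0.00621), and it kept this call without any single library, with adjusted p up to 0.0568. The effects on Mdm2 (-0.40, adjusted p = 0.0445), Trp53 (-0.32, adjusted p = 0.0684) and Cdkn1a (0.31, adjusted p = 0.0951) each lost the call without single libraries, and without medium control replicate 1 the adjusted p were 0.132, 0.239 and 0.306. Ccne1 (-0.40, adjusted p = 0.187) passed without medium IFNγ replicate 1 (0.0969) or high IFNγ replicate 2 (0.0455), and Ccnd2 (0.33, adjusted p = 0.705) without high IFNγ replicate 1 (0.91, adjusted p = 0.0842). The sign of the Ccnd2 difference was not stable, being -0.25 without high IFNγ replicate 2 and -0.013 without medium IFNγ replicate 1. The comparisons of high with medium and of medium with negative cells share the 4 medium libraries. For Cdkn2a, Cdkn2b and Ccnd3 neither interaction was past the threshold, also without any single library.

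The wider pathway was followed in 4 lists. The first held 32 genes known as p53 targets, and Cdkn1a and Mdm2 were kept out of it. In the day 7 populations it did not move with Trp53 in 1 direction. In X-GFP–negative cells IFNγ left 5 higher and 16 lower, in medium cells 10 and 10, and in high cells 4 and 15. Of all genes, 31.1%, 33.3% and 18.1% were higher and 30.8%, 29.6% and 20.4% lower in these populations. Perp, a desmosome protein of epithelia, was lowered most in each, by -1.77, -1.95 and -1.92 on the log2 scale. Plk2, a stress-induced kinase, was lower in negative (-1.02), medium (-0.64) and high cells (-0.82), and Pidd1, a death domain adaptor, was higher in all 3 (0.92, 0.88 and 0.28). Rprm, a G2 arrest gene of low level, was 2.43 higher in negative cells and was not called in medium (0.66, adjusted p = 0.230) or high cells (0.18, adjusted p = 0.768). The median of the list was -0.18, 0.04 and -0.16, against medians of 0.02, 0.04 and 0.03 over all genes. At days 2 and 5, 4 and 1 of the 32 were called, beside 8.49% and 2.18% of all genes, with Fas, a death receptor, higher at both (1.47 and 2.07).

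**Figure D4:**
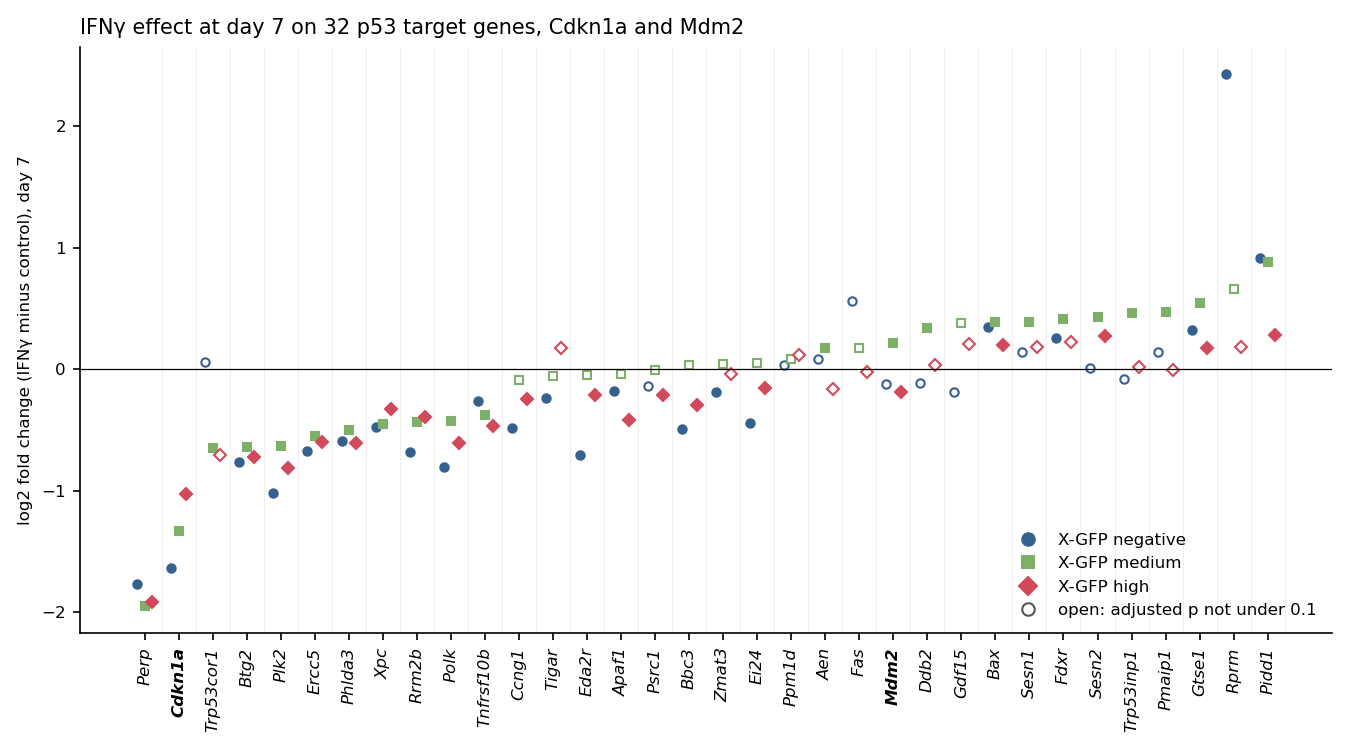
Log2 fold change of IFNγ-treated over control cells at day 7 for the 32 listed p53 target genes and, in bold, Cdkn1a and Mdm2, ordered by the value in X-GFP–medium cells, with 1 marker per sorted population and open markers where the adjusted p was not under 0.1. Perp, at -1.77 to -1.95, and Cdkn1a, at -1.03 to -1.64, lay lowest in all 3 populations, and Rprm stood apart at 2.43 in X-GFP–negative cells.

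Along the control course more of the targets rose than fell at the step at which Cdkn1a reached its peak. From day 5 to X-GFP–negative cells 18 of 31 tested rose and 3 fell, beside 34.2% and 29.5% of all genes, with a median of 0.49 on the log2 scale against 0.04 over all genes, while Trp53 itself fell. Bbc3, which encodes the death factor PUMA, and Gdf15, a stress cytokine, rose most, by 1.36 and 1.35. The list did not follow Cdkn1a from NPCs to day 2, where Cdkn1a rose by 1.37. There 8 of 32 rose and 15 fell, beside 31.6% and 37.6% of all genes. The median of the list was -0.23, against -0.08 over all genes. From X-GFP–high cells to ESCs 8 rose and 23 fell, beside 37.8% and 37.9% of all genes, while Trp53 rose. Plk2 fell most, by -2.64, and then Btg2, an antiproliferative gene, by -1.89. The targets did not run opposite to Trp53 at every step. From day 2 to day 5, where Trp53 rose, 13 of 32 rose and 7 fell, beside 34.9% and 35.6% of all genes. Trp53 was also higher in medium than negative cells, with 7 targets higher and 7 lower (21.9% and 25.2%). In high against medium cells, again with Trp53 higher, 9 were higher and 15 lower (31.4% and 32.7%).

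The second list held 16 regulators and relatives of p53, of which 15 were tested at day 7. In the 3 day 7 populations 8, 10 and 6 were higher with IFNγ and 2, 1 and 1 lower, where 31.1%, 33.3% and 18.1% of all genes were higher and 30.8%, 29.6% and 20.4% lower. Hipk2, a kinase that phosphorylates p53, was higher in all 3 (0.72, 0.79 and 0.55), and also at day 2 (0.71) and day 5 (0.61). Sirt1, which deacetylates p53, was higher in all 3 (0.60, 0.96 and 0.62). Zbtb7a, a repressor of the Arf start, was lower in negative (-0.81) and medium cells (-0.24) and not called in high cells (-0.11, adjusted p = 0.349). Mdm4, the relative of Mdm2, was lower in negative (-0.18) and high cells (-0.27) and not called in medium cells (0.12, adjusted p = 0.193).

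The third list, of 23 other genes of the G1 machinery, had 15, 15 and 5 genes higher and 4, 4 and 3 lower with IFNγ in negative, medium and high cells, beside the same shares of all genes as above (31.1%, 33.3% and 18.1% higher, 30.8%, 29.6% and 20.4% lower). E2f1, whose targets drive S phase, was higher in negative (1.24) and medium cells (0.85) and missed the threshold in high cells (0.26, adjusted p = 0.1003), and E2f2 was higher in all 3 (0.63, 0.63 and 0.74). Cdkn2d, a further Ink4 inhibitor on another chromosome, was lower in all 3, by -0.80, -0.73 and -0.84. Other CDK inhibitor genes of the list went the other way. Cdkn2c was called higher in negative and medium cells, and Cdkn1c in medium cells. Mycn was higher in all 3 (1.31, 0.78 and 0.18), and Myc, whose reads can include the transgene, was lower in all 3 (-0.61, -1.04 and -0.49). At day 2 limma called 4 of the 23, beside 8.49% of all genes, among them Cdk6, the partner of the D-type cyclins, which was higher (0.65). At day 5 the only call was Ccne2 (-0.75), the relative of Ccne1, beside 2.18% of all genes.

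The fourth list held 20 known regulators of the Ink4 and Arf locus, mostly Polycomb proteins and transcription factors, and 10, 7 and 8 were higher and 5, 5 and 1 lower with IFNγ in negative, medium and high cells. Of all genes, 31.1%, 33.3% and 18.1% were higher there and 30.8%, 29.6% and 20.4% lower. Tbx3, a repressor of Arf, was higher in all 3 (0.37, 1.30 and 0.72), as was the Polycomb gene Cbx7 (0.32, 0.75 and 0.24). Cbx2, also of Polycomb, was higher in negative (0.60) and high cells (0.31) and not called in medium cells (0.18, adjusted p = 0.138). Ets2, an activator of p16Ink4a, was lower in negative (-0.77) and medium cells (-0.64) and not called in high cells (0.03, adjusted p = 0.784). Id1, which opposes Ets factors, was lower in medium (-1.31) and high cells (-0.71) and not called in negative cells (0.0041, adjusted p = 0.980). Ets1 was called higher in negative cells only, where it rose most of the list. Cbx8 and Tbx2 were called lower in negative and medium cells. At days 2 and 5 limma called 0 of the 20, beside 8.49% and 2.18% of all genes. At an unadjusted p under 0.05 there were 7 and 3, and the share of all genes at that cutoff is not given here. At day 5 DESeq2 called 3 and edgeR 0. In the control course Cbx7 rose by 3.56 from day 2 to day 5, and Tbx3 rose by 0.89 from negative to medium and by 1.28 from medium to high cells.

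The genes whose means over the 12 populations were most like each member were named from 11923 genes, by Pearson correlation of log2 values. The populations share libraries with the comparisons above and an overall course, so the values are descriptions. Trp53 was most like Haspin (0.987) and Kif20a (0.974), and Ccne1 was most like Tra2b (0.989) and Msh3 (0.988). Ccnd2 was most like Nav3 (0.991) and Nxpe4 (0.986), Ccnd3 like Manba (0.981) and Mymx (0.976), and Ccnd1 like Mob1a (0.969) and Uprt (0.963). Among the inhibitors, Cdkn1a was most like Wdr48 (0.964) and Exph5 (0.955), Cdkn1b like Arfgap3 (0.971) and Tef (0.970), Cdkn2a like Tbc1d24 (0.982) and Esyt2 (0.981), and Cdkn2b like Clip1 (0.976) and Qsox1 (0.976). Mdm2 was most like Acad11 (0.959) and Wdr35 (0.951).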

How the data were processed

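RNA was sequenced from 24 libraries of 12 populations, 2 each, after depletion of ribosomal RNA in a stranded protocol. The authors aligned reads with STAR and WASP to mm10 masked at variants of both strains, counted them per gene with HTSeq 0.6.1 and normalized them with DESeq2, and the signal values they deposited are these normalized counts. A deposited file of allelic fractions was not used. Of the gene identifiers 95.2% were found in GENCODE vM21. Symbols, coordinates and exon lengths came from that annotation.

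limma 3.58.1 in R 4.3.3 (lmFit, eBayes with trend, two-sided) was run on log2(normalized count + 1) of genes with a mean above 10 in the 4 libraries of a comparison, or the 8 of an interaction, with Benjamini-Hochberg adjustment over all genes and a threshold of 0.1. Fold changes are on this scale and understate those of low genes. The authors' own test, DESeq2, needs counts, so limma was used in its place. In all 24 libraries 100% of values were whole multiples of 1 step, taken as 1 read (tolerance 0.001 reads). In 3 of them, day 2 control replicate 2, day 2 IFNγ replicate 2 and X-GFP–negative IFNγ replicate 2, the step was 0.989 to 0.993, and since steps that close to 1 were not accepted as recovered reads, these entered no count test. DESeq2 1.42.0 and edgeR 4.0.16 (quasi-likelihood) were run on the recovered reads of the other 21 as alternatives. Further alternatives were a pseudocount of 0.1, no filter, rescaling to equal totals, a replicate block, 1 fit of all 24 libraries, and leaving out each library. A block with crossed replicate numbers was added after seeing the data. The procedure was tested on simulated data.

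All 10 members are named, with, from each of 4 lists, up to 2 genes of largest increase and 2 of largest decrease past the threshold per comparison, and the 2 genes most like each member among those with a mean above 100. Not all of the genes so allowed are printed. The members and lists were chosen with earlier results of these data known. Normalized totals were 26663706 to 31211766 per library and mt-Rnr2 took 9.02% to 19.1% of them, and replicates differed by more than sampling noise (chi-square per degree of freedom 3.35 to 20.7).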

Additional observations from a re-analysis of the deposited data

Results flagged for a closer look

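The results listed here are those in which a test of the difference found that the IFNγ effect on a member was not the same in neighbouring day 7 populations (limma interaction, 8 libraries, log2 scale, adjusted p under 0.1). Between X-GFP–medium and negative cells the effect differed by -2.18 for Ccnd2, -0.45 for Ccnd1, 0.34 for Mdm2, 0.34 for Cdkn1b and 0.31 for Cdkn1a. Between X-GFP–high and medium cells it differed by 0.96 for Ccnd1, -0.40 for Mdm2, -0.32 for Trp53 and 0.31 for Cdkn1a. The Ccnd2 and the high against medium Ccnd1 differences were called in every alternative that was run on them.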

How the results depend on the processing

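Over the 150 values of the 10 members in all comparisons and interactions, a pseudocount of 0.1 changed the call of none. The lack of a filter took 8 below the threshold, rescaling 5, and a fit of all 24 libraries 12. DESeq2 and edgeR, each run on 90 of them, took 2 each below the threshold. The fit of all libraries brought 4 past it, DESeq2 2 and rescaling 1. Of 720 values without 1 library, 57 lost and 15 gained the call. The sign of no called value turned under any of these. Of the values that were not called, rescaling turned 5 signs and leaving out a library 38. With rescaling, Mdm2 and Ccnd2 in X-GFP–negative cells with IFNγ came to 0.033 and 0.054, Ccnd3 in the interaction of medium with negative cells to -0.087, Cdkn2a from day 2 to day 5 to -0.060, and Ccnd2 between control medium and negative cells to 0.036. Without a library, the effect on Ccnd2 in negative cells came to 0.044 (without IFNγ replicate 1; -0.25 to 0.044 over the left-out libraries), and its difference between day 5 and day 2 to 0.17 without day 5 IFNγ replicate 2 and 0.062 without day 5 control replicate 1. The causes were not tested.

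The number of members called at day 2 was 2, and 1 to 3 without a library. At day 5 it was 0, but 2 in the fit of all libraries, 2 with DESeq2, and 0 to 2 without a library. For the interaction of day 5 with day 2 it was 0 to 1 without a library. For that of X-GFP–medium with negative cells it was 5, but 2 without a filter, 3 with rescaling, 2 in the fit of all libraries and 1 to 5 without a library. For that of high with medium cells it was 4, but 1 without a filter, 2 in the fit of all libraries and 1 to 4 without a library.

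Replicate numbers were not treated as pairing the libraries, since the labels give no shared source and only 7 of 66 pairs of populations had deviations that correlated by over 0.1. Between control and IFNγ libraries the correlation was 0.312 at day 2, the highest of the 66 pairs. It was 0.255 at day 5, and 0.117, 0.0956 and 0.0488 in negative, medium and high cells. With the replicate block, 11 values gained the call and 0 lost it. At day 2 it called 5 members, with Cdkn1a, Ccnd2 and Ccne1 added, and at day 5 it called 3, Mdm2, Ccnd3 and Ccnd2. The other gains were Mdm2 in negative cells with IFNγ, from day 2 to day 5 and between control medium and negative cells, Trp53 in the interaction of medium with negative cells, and Ccne1 in that of high with medium cells. The numbers of day 2 control cells and NPCs correlated by -0.118, and with crossed numbers as the block 7 members were called, as without a block. With 2 libraries a group, a fit without 1 library assumes that the remaining library varies like the others. The populations are bulk sorts of 1 cell line.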
